A study of Mus musculus with 8 samples.

Results

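Thrombospondins, tenascins, periostin, SPARC and fibronectin are glycoproteins that cells secrete into their matrix. The 8 genes described here are Thbs1, Thbs2 and Thbs3 (thrombospondins), Tnc and Tnxb (tenascins), Postn (periostin), Sparc and Fn1 (fibronectin). They were chosen as a named set of gene symbols, with earlier results of these data known. All 8 were found among the 20781 genes of the deposited count table and were tested. RNA was measured in cultured FAPs (fibro-adipogenic progenitors) of the mouse, stromal cells of muscle that give rise to fat cells and to fibroblasts. Per the labels, the FAPs were isolated from uninjured leg muscles (tibialis anterior, gastrocnemius, quadriceps) of wild-type male mice of the C57BL/6 strain, written C57BL/6J elsewhere in the labels, and after 48 h in culture were exposed for 24 h to vehicle (4 libraries) or to melatonin (4 libraries), a pineal hormone. The age of the mice and the concentration of melatonin are not stated in these labels, and the extraction protocol names longissimus dorsi in place of those muscles. The labels call the 4 libraries of a group biological replicates without saying whether each came from its own animal or culture, so p-values measure the spread between these libraries only.

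Matricellular proteins are secreted proteins that act on cells more than they build the scaffold. They bind receptors such as integrins, CD47 and CD36, and they also bind growth factors, proteases and collagen. Thrombospondin-1, tenascin-C and periostin are typical of wounds and fibrotic tissue, whereas tenascin-X belongs to the mature connective tissue of muscle, tendon and skin. Fibronectin is a structural glycoprotein that cells assemble into fibrils through integrins, and in muscle it forms part of the temporary matrix laid down after injury.

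Total counts ran from 35584931 to 52401153 per library, and each member had at least 932 counts in every library. On the first principal component (61.4% of variance) the groups separated. On the second (13.3%) melatonin replicate 4 scored -37.7 and the other 3 melatonin libraries 13.8 to 15.3. Levels are given in CPM, counts at a common library size scaled with TMM factors (a scaling that assumes most genes keep their level), and fold changes are melatonin over vehicle on the log2 scale with the standard error of the edgeR fit. The 6 FAP markers were all present, with a summed level of 1533 to 1682 CPM with vehicle and 1186 to 1436 CPM with melatonin, of which Ly6a and Dpp4 fell. The 3 adipocyte markers in the table (Adipoq, Plin1, Fabp4) summed to 100.4 to 105.6 CPM with vehicle and to 632 to 798 CPM with melatonin, and all 3 rose. Macrophage markers (5 of 5 detected) summed to 454 to 699 CPM and 311 to 581 CPM, with Csf1r lower and the other 4 not past the threshold. Tenocyte markers (3 of 3 detected), a source of tenascin-rich matrix, summed to 42.1 to 49.8 CPM and 27.7 to 48.04 CPM, with Tnmd lower. The 5 endothelial markers summed to 28.7 to 34.6 CPM and 45.8 to 54.4 CPM, of which Tek rose. Smooth muscle and pericyte markers (5 of 5) summed to 43.3 to 54.1 CPM and 39.7 to 50.6 CPM, with Rgs5 lower and Kcnj8 higher, and myofibre markers (5 of 5) to 70.3 to 94.1 CPM and 61.5 to 205.9 CPM, with Acta1 higher. Schwann cell markers (4 of 4) summed to 15.4 to 16.8 CPM and 17.03 to 19.6 CPM, with Sox10 higher. Of the 5 satellite cell and myoblast markers, 3 were detected and 2, Pax7 and Myf5, were not analysed here; the 3 summed to 39.3 to 55.02 CPM and 21.6 to 82.3 CPM and did not pass. Mitochondrial genes took 1.05% to 1.3% of the counts of a vehicle library and 2.09% to 2.44% of those of a melatonin library, without overlap. The part of these shifts in the results below was not tested, and in bulk RNA fewer cells of a type and less RNA per cell cannot be told apart.

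Of the 8 genes, 6 fell with melatonin, 1 rose (Tnxb) and 1 did not pass the test (Thbs2), at an edgeR quasi-likelihood adjusted p under 0.05. Among all 16565 tested genes 36.5% passed, 18.5% as lower and 18.1% as higher. Library totals in place of TMM factors gave 5099 genes higher and 2237 lower (69.5% of those passing were higher, against 49.4%). The median log2 fold change was -0.60 over the 8 genes and 0.01 over all tested genes. The 8 genes were chosen with earlier results of these data known, so setting them beside all tested genes does not test the set. At least 2-fold lower were Thbs1, Thbs3 and Tnc, that is 3 of the 8, where 7.23% of all tested genes were. With library totals Thbs3 (log2 -0.96) and Tnc (-0.93) were short of 2-fold. The 4 melatonin libraries lay all above or all below the 4 vehicle libraries for 6 of the 8 genes, and for 37.7% of all tested genes. Together the 8 genes took 2.8% to 3.12% of a vehicle library's counts and 2.05% to 2.41% of a melatonin library's, ranges that do not overlap.

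**Figure D1:**
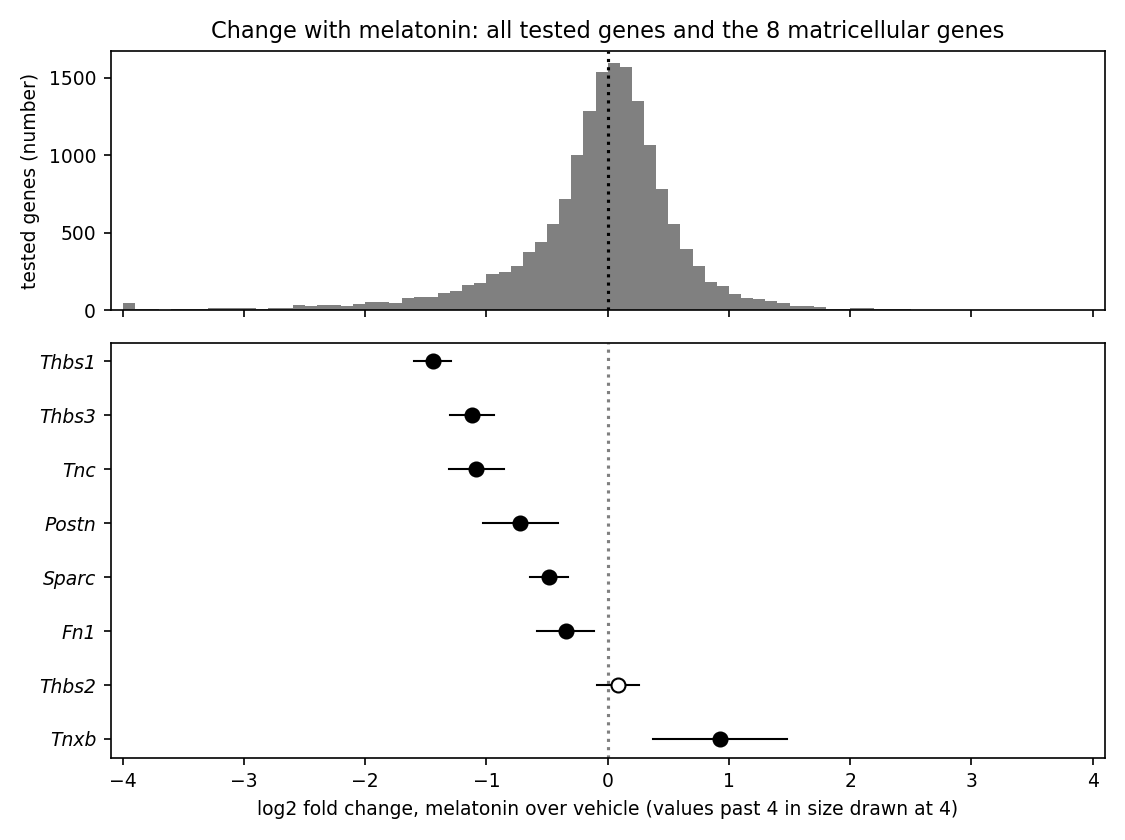
Log2 fold changes with melatonin. The upper panel counts all 16565 tested genes by log2 fold change (values beyond 4 in size are drawn at 4), and the lower panel gives each of the 8 genes with its 95% confidence interval, filled where the edgeR adjusted p was under 0.05. Thbs1 lies furthest to the left at -1.45, Thbs2 is the open point at 0.08, and Tnxb is the filled point to the right of 0 at 0.93.

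Within the thrombospondins Thbs2 did not pass and Thbs3 fell, and the tenascins Tnc and Tnxb moved in opposite directions, so the promoters of these 4 genes are printed. Promoter letters came from RefSeq on GRCm38.p6 and matched 6 of the 8 genes (Thbs2, Thbs3, Tnc, Tnxb, Postn and Sparc), not Thbs1 or Fn1. Each run is the 250 bases before a RefSeq transcript start, 5′ to 3′ on the gene's strand. The regions are chr17:14694263-14694512 (minus strand), chr3:89214930-89215179 (plus strand), chr4:64047016-64047265 (minus strand) and chr17:34670285-34670534 (plus strand). Capitals mark every match on either strand to 6 motifs. The AP-1 motif was searched as TGANTCA, the TEAD motif as GGAATG, the Sp1 motif as GGGCGG and the TATA box as TATAAA. The NF-kB consensus and the CArG box of serum response factor were searched as well.
Thbs2: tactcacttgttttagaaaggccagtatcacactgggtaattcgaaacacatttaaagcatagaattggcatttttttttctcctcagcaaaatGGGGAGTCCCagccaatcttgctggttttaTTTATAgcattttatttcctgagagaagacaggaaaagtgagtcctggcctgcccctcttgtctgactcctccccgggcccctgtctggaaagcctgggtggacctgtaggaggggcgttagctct
Thbs3: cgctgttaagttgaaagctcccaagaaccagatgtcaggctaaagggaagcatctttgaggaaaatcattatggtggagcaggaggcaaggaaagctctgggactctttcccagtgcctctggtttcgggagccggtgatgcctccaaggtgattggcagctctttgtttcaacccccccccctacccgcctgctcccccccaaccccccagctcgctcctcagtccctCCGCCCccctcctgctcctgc
Tnc: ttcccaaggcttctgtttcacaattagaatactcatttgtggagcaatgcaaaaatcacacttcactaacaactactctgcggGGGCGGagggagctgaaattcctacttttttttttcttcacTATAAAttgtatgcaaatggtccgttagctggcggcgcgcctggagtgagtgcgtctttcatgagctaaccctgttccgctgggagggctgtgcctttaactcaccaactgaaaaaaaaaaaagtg
Tnxb: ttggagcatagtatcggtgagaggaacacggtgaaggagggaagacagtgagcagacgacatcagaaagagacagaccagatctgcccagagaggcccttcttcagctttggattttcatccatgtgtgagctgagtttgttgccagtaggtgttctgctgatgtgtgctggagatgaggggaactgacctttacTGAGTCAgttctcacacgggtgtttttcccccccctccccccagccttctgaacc
Of the 2 thrombospondin genes, the Thbs2 promoter held an NF-kB match (GGGGAGTCCC, starting 156 bases before the start site) and a TATA match on the opposite strand, and the Thbs3 promoter held an Sp1 match on the opposite strand. In the tenascin pair, Tnc held an Sp1 and a TATA match, the latter starting 126 bases before the start site of the printed window. From a second RefSeq start of Tnc, not printed, the same TATA match started 205 bases and the Sp1 match 246 bases before it. That second window also holds tatataag closer to its start, letters that the search for TATAAA does not mark. Tnxb held an AP-1 match (TGAGTCA) starting 55 bases before its start site. The marked matches do not overlap each other. Over all 32851 promoter windows of the same length in the table, 6.75% held the AP-1 motif, 12.6% the TEAD motif, 32.7% the Sp1 motif, 12.4% the TATA box, 7.25% the NF-kB consensus and 1.47% the CArG box. Of the 6 matched genes, 1 held the AP-1 letters, 0 the TEAD letters, 2 the Sp1 letters, 3 the TATA letters, 1 the NF-kB letters and 0 the CArG letters. A gene was counted if any of its windows matched, and Tnc and Postn had 2 windows each. Postn held the TATA letters only in its second window. Counts by gene and shares by window are therefore not the same measure. A match is a run of letters in this window and shows no binding.

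Thbs1 encodes thrombospondin-1, which activates latent TGF-beta and binds CD47 and CD36. The gene (ENSMUSG00000040152) lies on chromosome 2 of GRCm38, 118111876 to 118127133, plus strand, and is protein-coding, as are the other 7. Its level was 4709, 4665, 4552 and 4368 CPM in vehicle replicates 1 to 4 and 1775, 1513, 1718 and 1713 CPM in melatonin replicates 1 to 4. The lowest vehicle library stood far above the highest melatonin library. The mean went from 4574 ± 152 to 1679.7 ± 114 CPM (SD, n = 4 libraries each), 2.72-fold lower (log2 -1.45 ± 0.07, edgeR adjusted p = 7.54e-07). It ranked 40 by p among all tested genes, and 4.53% of tested genes had a lower log2 fold change.

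Thbs2 encodes thrombospondin-2, the nearest relative of thrombospondin-1, which restrains angiogenesis and binds matrix metalloproteinases. The gene (ENSMUSG00000023885) lies on chromosome 17, 14665500 to 14694235, minus strand. Vehicle replicates 1 to 4 had 718, 712, 694 and 722 CPM, and melatonin replicates 1 to 4 had 833, 767, 765 and 649 CPM. Melatonin replicates 1 to 3 lay above all vehicle libraries and melatonin replicate 4 below all of them. The vehicle libraries differed little, with a coefficient of variation of 1.75%, against 10.2% with melatonin. The log2 fold change was 0.08 ± 0.08 with a 95% confidence interval of -0.09 to 0.26 (edgeR adjusted p = 0.443), an interval wholly above that of Thbs1 (-1.60 to -1.29). Without melatonin replicate 4 it was 0.16 ± 0.05 and passed (edgeR adjusted p = 0.0444), as it did with library totals in place of TMM factors (0.24, edgeR adjusted p = 0.0338), over a range of adjusted p of 0.0338 to 0.712 in 19 alternatives.

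Thbs3 encodes thrombospondin-3, which belongs with Thbs4 and Comp to the subgroup that assembles into larger oligomers and lacks the TGF-beta activating repeats. The gene (ENSMUSG00000028047) lies on chromosome 3, 89215180 to 89226837, plus strand. Its level was 49.6, 50.6, 57 and 50.4 CPM with vehicle and 22.9, 22, 24.6 and 26.1 CPM with melatonin, with no overlap. The 2.17-fold lower mean (51.9 ± 3.41 to 23.9 ± 1.83 CPM; SD, n = 4) gave a log2 fold change of -1.12 ± 0.08 and an edgeR adjusted p of 6.68e-06. Its annotated exons share 318 bases with Mtx1, a mitochondrial import gene on the opposite strand, and whether counting used strand is not stated in the labels. Mtx1 had 5235 counts in all vehicle and 5204 in all melatonin libraries and a log2 fold change of 0.04 (edgeR adjusted p = 0.81).

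The ratio of 2 genes within a library does not depend on how libraries are scaled, and it was used to ask whether the members of a pair changed by different amounts. For each of 6 pairs, log2 ratios of counts (with 0.5 added to each count) were compared between the groups by a two-sided exact permutation test over the 8 libraries. The smallest p that 4 against 4 libraries allow is 0.0286. Thbs1 had 6.56, 6.55, 6.56 and 6.05 times the counts of Thbs2 in vehicle replicates 1 to 4 and 2.13, 1.97, 2.25 and 2.64 times in melatonin replicates 1 to 4. The log2 ratio therefore fell by 1.53 (exact p = 0.0286, adjusted over the 6 pairs p = 0.0343), and the libraries of the groups did not overlap. Thbs2 to Thbs3 rose by 1.20 and Thbs1 to Thbs3 fell by 0.33 (exact p = 0.0286 and adjusted p = 0.0343 for each). In none of the 3 thrombospondin pairs did the libraries of the groups overlap, and Thbs1 to Thbs3, which both fell, shifted least. With 1 library left out the smallest p is again 0.0286, with splits counted by the size of the difference. Thbs1 to Thbs2 and Thbs2 to Thbs3 then kept an exact p of 0.0286 in every case, with differences of -1.61 to -1.47 and 1.13 to 1.31. Their adjusted p was over 0.05 without vehicle replicate 1 or 2 or melatonin replicate 3 (0.0686, 0.0571 and 0.0571). It rose there because other pairs in the same adjustment had an exact p of 0.0571. Thbs1 to Thbs3 had an exact p of 0.0571 (adjusted p 0.0571 to 0.0686) without vehicle replicate 1 or 2 or melatonin replicate 2, 3 or 4, with differences of -0.33 to -0.29.

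**Figure D2:**
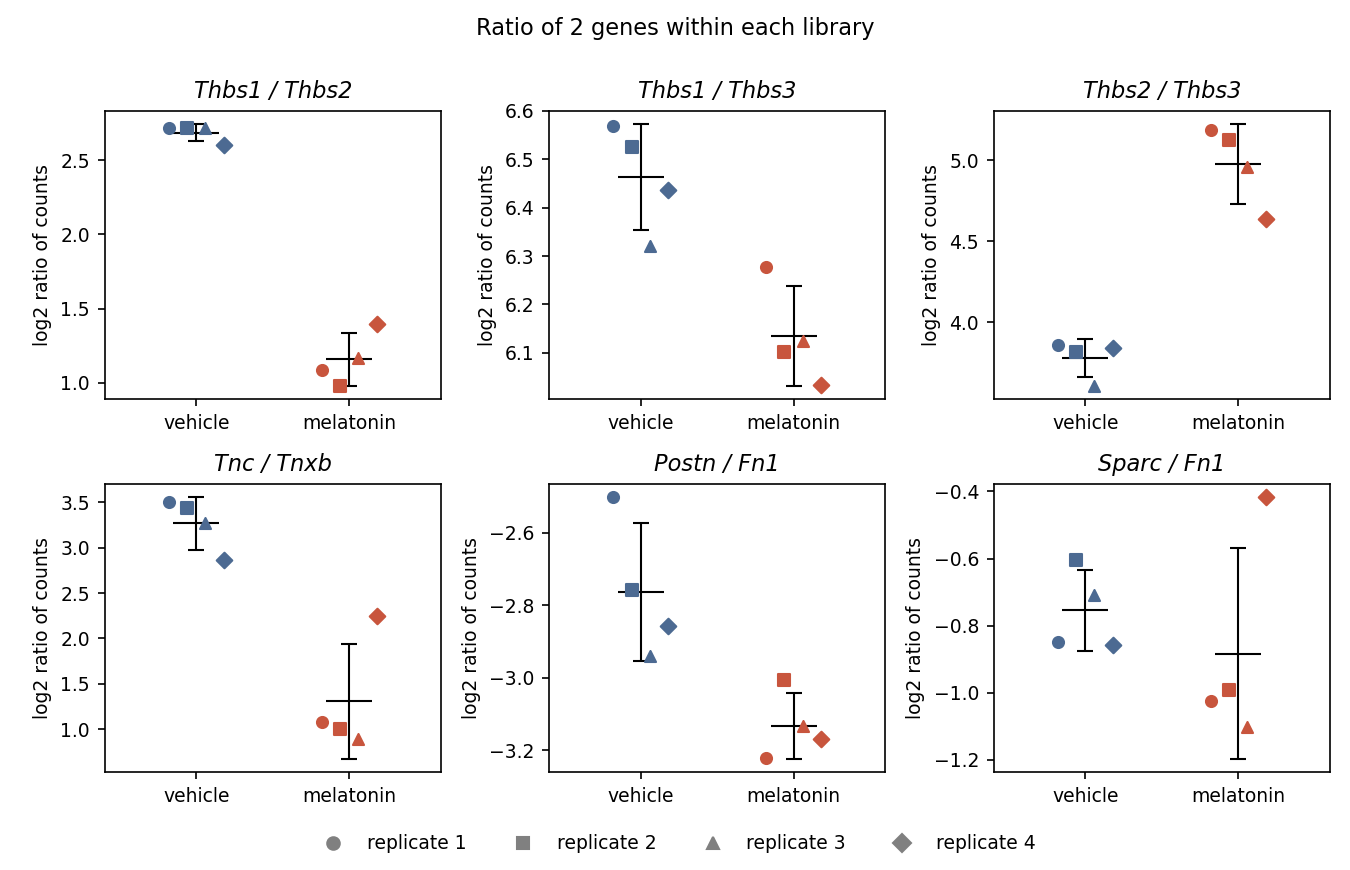
Log2 ratio of the counts of 2 genes within each library, for 6 pairs, with vehicle and melatonin libraries as points (shape gives the replicate number) and a bar for the mean and SD of 4. The vertical axes do not start at 0 and differ between panels. The groups do not overlap in 5 pairs and overlap in Sparc / Fn1, where melatonin replicate 4 lies at -0.42 above all vehicle libraries.

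The tenascins moved in opposite directions. Tnc encodes tenascin-C, which is made at sites of injury and weakens the adhesion of cells to fibronectin. The gene (ENSMUSG00000028364) lies on chromosome 4, 63959785 to 64047015, minus strand. Tnc had 724, 628, 764 and 601 CPM with vehicle and 330.2, 283, 307 and 361 CPM with melatonin. Every melatonin library was below every vehicle library, and the mean fell 2.12-fold (log2 -1.08 ± 0.10, edgeR adjusted p = 3.28e-05). An overlapping transcript on the opposite strand, 8030451A03Rik, had 98 counts in all vehicle and 19 in all melatonin libraries, few beside the counts of Tnc, which were 11990 or more in each library.

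Tnxb encodes tenascin-X, which links collagen fibrils and whose loss causes a form of Ehlers-Danlos syndrome. The gene (ENSMUSG00000033327) lies on chromosome 17, 34670535 to 34719815, plus strand. It had 63.6, 57.9, 79.4 and 82.7 CPM with vehicle and 157, 141, 165 and 75.9 CPM with melatonin. Melatonin replicates 1 to 3 were above all vehicle libraries, and melatonin replicate 4 lay within the vehicle range. The mean went from 70.9 ± 12 to 135 ± 40.6 CPM, a log2 fold change of 0.93 ± 0.24 (edgeR adjusted p = 0.0168). Without melatonin replicate 4 it was 1.13 ± 0.12 (edgeR adjusted p = 0.000155), and over 19 alternatives the adjusted p ran from 0.000155 to 0.0643. The call of Tnxb does not hold at a threshold of 0.01, nor with the replicate number as a block (edgeR adjusted p = 0.0643). Tnc had 11.4, 10.8, 9.63 and 7.27 times the counts of Tnxb in vehicle replicates 1 to 4 and 2.1, 2.01, 1.86 and 4.76 times in melatonin replicates 1 to 4. That log2 ratio fell by 1.96 (exact permutation p = 0.0286, adjusted p = 0.0343), the largest shift of the 6 pairs, and differed by -2.28 without melatonin replicate 4 (exact adjusted p = 0.0429). Its adjusted p was 0.0686 without any 1 of the 4 vehicle replicates (exact p = 0.0571). Without melatonin replicate 3 its adjusted p was 0.0571, although its exact p stayed at 0.0286. Differences in these exclusions were -2.10 to -1.83.

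Postn encodes periostin, an integrin ligand that supports collagen crosslinking and is strongly made by activated fibroblasts. The gene (ENSMUSG00000027750) lies on chromosome 3, 54361109 to 54391037, plus strand. Its level was 2624, 1926, 1902 and 2095 CPM with vehicle and 1322, 1459, 1398 and 999 CPM with melatonin. Vehicle replicate 1 was the highest and melatonin replicate 4 the lowest, and the groups did not overlap. Postn was 1.65-fold lower with melatonin (log2 -0.72 ± 0.14, edgeR adjusted p = 0.00266). Its coefficient of variation was 15.7% with vehicle and 15.8% with melatonin, where the 1922 tested genes with a mean of 100 CPM or more had medians of 6.2% and 9.22%.

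Sparc encodes a collagen-binding, calcium-binding protein that regulates how collagen is deposited. The gene (ENSMUSG00000018593) lies on chromosome 11, 55394500 to 55423183, minus strand. Vehicle libraries had 8245, 8569, 8928 and 8389.8 CPM and melatonin libraries 6075, 5895, 5723 and 6729 CPM. The groups did not overlap, and melatonin replicate 4 was the highest of its group. The mean was 1.4-fold lower (log2 -0.48 ± 0.07, edgeR adjusted p = 0.000466), a smaller change than those of Thbs1, Thbs3 and Tnc, with 32% of tested genes further from 0.

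Fn1 encodes fibronectin and had 45 merged exon blocks on chromosome 1 (ENSMUSG00000026193, 71585520 to 71653200, minus strand). Its splice forms were not analysed here. Its level was 14852, 13028, 14589 and 15188 CPM with vehicle and 12348, 11727, 12273 and 8983 CPM with melatonin. The groups did not overlap, although vehicle replicate 2 and melatonin replicate 1 were close. The mean was 1.27-fold lower (log2 -0.35 ± 0.11, edgeR adjusted p = 0.0281), the smallest fall of the 6 genes that fell. That call was lost without vehicle replicate 1, 3 or 4 (edgeR adjusted p = 0.0668, 0.062 and 0.0765) and with library totals in place of TMM factors (log2 -0.19, edgeR adjusted p = 0.187). It does not hold at a threshold of 0.01 either, nor with the replicate number as a block (edgeR adjusted p = 0.0536). It held without melatonin replicate 4 (log2 -0.24 ± 0.07, edgeR adjusted p = 0.0176), and the adjusted p had a range of 0.00903 to 0.187 in 19 alternatives.

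Postn fell by more than Fn1. The log2 ratio of Postn to Fn1 counts was -2.50, -2.76, -2.94 and -2.86 with vehicle and -3.22, -3.01, -3.13 and -3.17 with melatonin, and it fell by 0.37 (exact permutation p = 0.0286, adjusted p = 0.0343). The adjusted p of that exact test was 0.0571 to 0.0686 without vehicle replicate 1 or 2 or melatonin replicate 1, 3 or 4, with differences of -0.37 to -0.28. In these exclusions the exact p was 0.0571, except without vehicle replicate 2, where it stayed at 0.0286. For Sparc to Fn1 the difference was -0.13 (exact permutation p = 0.514, adjusted p = 0.514), from -0.75 ± 0.12 with vehicle to -0.88 ± 0.31 with melatonin (SD, n = 4), which does not show that they changed alike. In that pair melatonin replicates 1 to 3 lay below all vehicle libraries and melatonin replicate 4 above them. Without melatonin replicate 4 the difference was -0.28 (exact permutation p = 0.0286, adjusted p = 0.0429), and without any other 1 library it was -0.16 to -0.056 (exact p = 0.486 to 0.771).

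**Figure D3:**
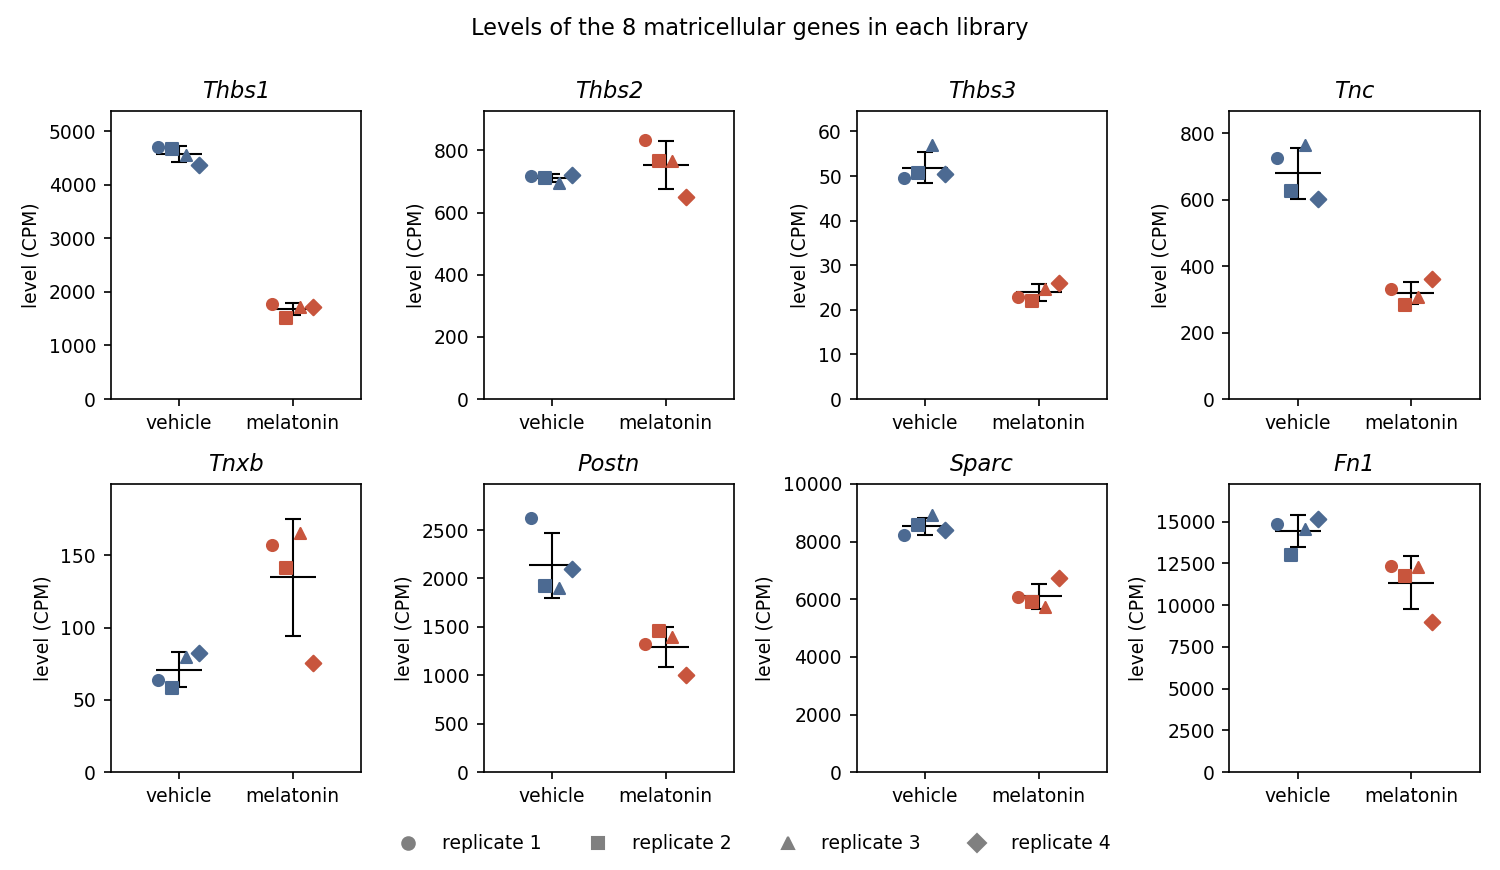
Levels in CPM of the 8 genes in each library, with a bar for the mean and SD of 4 libraries in each group and the point shape giving the replicate number. All vertical axes start at 0. Thbs1, Thbs3, Tnc, Postn, Sparc and Fn1 do not overlap between groups. In the Tnxb and Thbs2 panels melatonin replicate 4, the diamond, lies apart from the other 3 melatonin libraries.

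Melatonin replicate 4, the library with the lowest total counts (35584931), stood outside the range of the other 3 melatonin libraries for 7 of the 8 genes. It was below them for Thbs2, Tnxb, Postn and Fn1 and above them for Thbs3, Tnc and Sparc, and it lay among them for Thbs1 (1713 CPM against 1513 to 1775). That library also had the lowest sum of its group for 8 of the 9 marker lists, among them FAP (1186 CPM), macrophage (311 CPM) and adipocyte markers (632 CPM), and the highest for the tenocyte markers (48.04 CPM). The part of the markers and of library depth in the levels of the 8 genes was not tested.

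To compare levels between genes, CPM were divided by the length of each gene's merged exons in GENCODE M21. In vehicle libraries the order of the level per kb was Sparc (2253 ± 77.8 CPM per kb), Fn1 (1234 ± 81.8), Thbs1 (753 ± 25.1), Postn (246 ± 38.6), Thbs2 (102 ± 1.78), Tnc (87.4 ± 9.96), Thbs3 (10.8 ± 0.708) and Tnxb (5.81 ± 0.983; SD, n = 4). In that order no gene's libraries overlapped those of its neighbour. With melatonin the order was Sparc (1612 ± 116 CPM per kb), Fn1 (969.9 ± 136), Thbs1 (277 ± 18.9), Postn (149 ± 23.5), Thbs2 (108 ± 11), Tnc (41.2 ± 4.26), Tnxb (11.05 ± 3.32) and Thbs3 (4.96 ± 0.379). Postn and Thbs2 then overlapped, and no other neighbours did. Thus Tnxb and Thbs3 exchanged places between the groups, and Thbs2 came close to Postn. Merged exons join all annotated transcripts of a gene, so the length used can exceed that of the transcripts present.

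**Figure D4:**
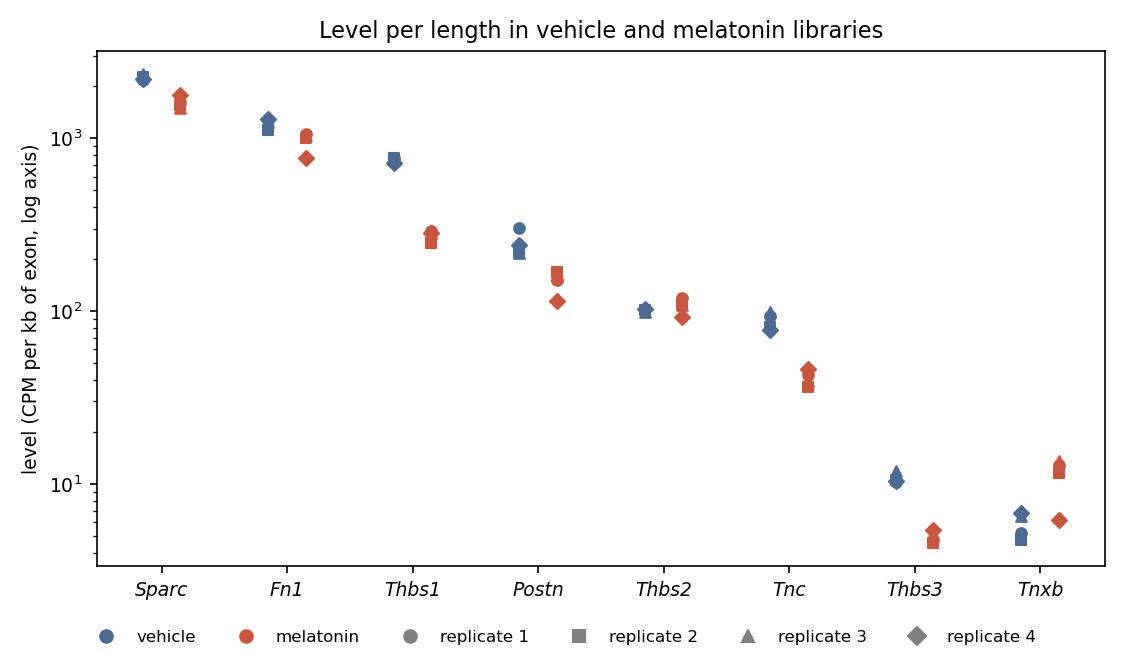
Level in CPM per kb of merged exon (log axis) of the 8 genes, ordered by their vehicle mean, with 1 point for each of the 4 vehicle and 4 melatonin libraries. Sparc is highest in both groups (means 2253 and 1612), and Tnxb and Thbs3 exchange places at the low end.

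The genes nearest to each of the 8 in their pattern over the 8 libraries were found by the root-mean-square difference of log2 CPM, each gene centred on its own mean, among 9267 other tested genes with a mean of at least 10 CPM. For Thbs1 they were Gm2115 (difference 0.07 on the log2 scale) and Rffl, a ubiquitin ligase gene (0.07). Thbs3 was nearest to Col5a2, a chain of the fibril-nucleating collagen V (0.06), and Rhoj, a small GTPase gene (0.07). Col5a2 went from 3435 ± 135 to 1695 ± 107 CPM. Tnc was nearest to 1500009L16Rik (0.09) and Lrrc8c, a subunit gene of volume-regulated anion channels (0.09). For Postn they were Zfpm2, a GATA cofactor gene (0.08), and Vegfa, the angiogenic growth factor gene (0.09), and Vegfa went from 149.5 ± 15.3 to 92.7 ± 15.2 CPM. Sparc had the closest match of all, Nars (0.03), an aminoacyl-tRNA synthetase gene, followed by Arl6ip5 (0.03). Fn1 was nearest to Bcor, a corepressor gene (0.03), and the Wnt coreceptor gene Lrp5 (0.04). Thbs2 was nearest to Tcof1 and Pelp1 (0.04 each), 2 genes of ribosome production that did not pass either. Tnxb was nearest to the Wnt inhibitor gene Apcdd1 (0.10) and the centrosomal gene Wdr62 (0.13), both of which rose. All of these profiles share the same 8 libraries and the same split into groups.

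Relatives of the 8 genes were mostly lower. Of 14 listed, 12 were tested, 8 fell, 1 rose and 3 did not pass, where 18.5% of all tested genes were lower and 18.1% higher, with a median log2 fold change of -0.61 against 0.01 over all tested genes. The list was chosen with earlier results of these data known. Tnn, the gene of tenascin-W, went from 7.71 ± 1.14 to 0.619 ± 0.0922 CPM (log2 -3.63 ± 0.17, edgeR adjusted p = 6.89e-07). Spp1, which encodes osteopontin, an integrin-binding cytokine, went from 1703 ± 174 to 736 ± 86.5 CPM. The 2 SMOC genes, relatives of Sparc, went opposite ways. Smoc2 fell from 145 ± 16 to 52.4 ± 9.03 CPM (log2 -1.47 ± 0.13), and Smoc1 rose from 25.7 ± 4.64 to 82.3 ± 16.7 CPM (log2 1.68 ± 0.18). Spock1 (24 vehicle and 16 melatonin counts) and Spock3 (12 and 8 counts) had too few counts for the test. Named after their values were seen, to complete the families, Thbs4 fell (log2 -0.44 ± 0.08), Comp did not pass (0.08 ± 0.12), and Tnr fell (-3.29 ± 0.38), the last from 239 counts in all vehicle libraries to 23 in all melatonin libraries. Of the 5 thrombospondin genes, 3 therefore fell and Thbs2 and Comp did not pass (with library totals Thbs2 passed as higher), and of the 4 tenascin genes Tnxb was the one that rose.

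Receptors of these proteins were lower in more cases than higher. Of 16 tested, 9 fell, 3 rose and 4 did not pass (median log2 fold change -0.42), beside 18.5% lower and 18.1% higher among all tested genes. The share that rose was near that of all tested genes. This list too was chosen with earlier results of these data known. Itga5, the integrin chain of the main fibronectin receptor, went from 297 ± 7.03 to 209 ± 7.82 CPM (log2 -0.51 ± 0.06). Sdc4, a syndecan that takes part in fibronectin adhesion, fell by 0.90 ± 0.09 on the log2 scale, and Calr, the gene of calreticulin, which also serves as a cell-surface partner of thrombospondin-1, had a log2 fold change of -0.67 ± 0.07 and fell too. Cd36, a thrombospondin-1 receptor and fatty acid transporter gene that adipocytes also express, rose from 12.7 ± 1.28 to 69.5 ± 11.6 CPM (log2 2.46 ± 0.13, edgeR adjusted p = 1.46e-06). The summed adipocyte markers rose in the same libraries, and their part in the Cd36 difference was not tested. Cd47, the other main thrombospondin-1 receptor and named after its values were seen, fell by 0.43 ± 0.08. The integrin chain genes Itgb5 (log2 0.21 ± 0.07) and Itga3 (0.31 ± 0.10) rose by small amounts. Each lost the call without any 1 of several libraries. For Itgb5 the edgeR adjusted p was 0.0516 to 0.0956 without vehicle replicate 1, 3 or 4 or melatonin replicate 1 or 2. For Itga3 it was 0.0517 to 0.0813 without vehicle replicate 1, 2, 3 or 4 or melatonin replicate 3. Neither call holds at a threshold of 0.01, nor with the replicate number as a block (edgeR adjusted p = 0.113 for Itgb5 and 0.075 for Itga3).

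Most genes listed as binding partners, crosslinking enzymes and proteases of these proteins were lower. Of 16 tested, 13 fell, 0 rose and 3 did not pass (median log2 fold change -0.55), with 18.5% of all tested genes lower and 18.1% higher. The partners, like the other lists, were chosen with earlier results of these data known. With DESeq2 and with limma-voom 0 rose as well, and 1 was higher at an unadjusted edgeR p under 0.05. That gene was Mmp14, a membrane-bound protease gene named after its values were seen (log2 0.26 ± 0.10, edgeR adjusted p = 0.0618). Mmp14 passed as higher without melatonin replicate 4 (0.34 ± 0.07, edgeR adjusted p = 0.00348) and under 3 other alternatives. Tgm2, a transglutaminase that crosslinks fibronectin, went from 201 ± 20 to 41.8 ± 6.65 CPM (log2 -2.27 ± 0.13). Mmp9, a gelatinase that can cleave matrix proteins, went from 155 ± 10.4 to 22.7 ± 4.15 CPM (log2 -2.77 ± 0.13), and Col1a1, the fibrillar collagen chain, fell by 1.05 ± 0.08. Bmp1, a protease that processes procollagen and is bound by periostin, was named after its values were seen and fell by 0.50 ± 0.06.

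**Figure D5:**
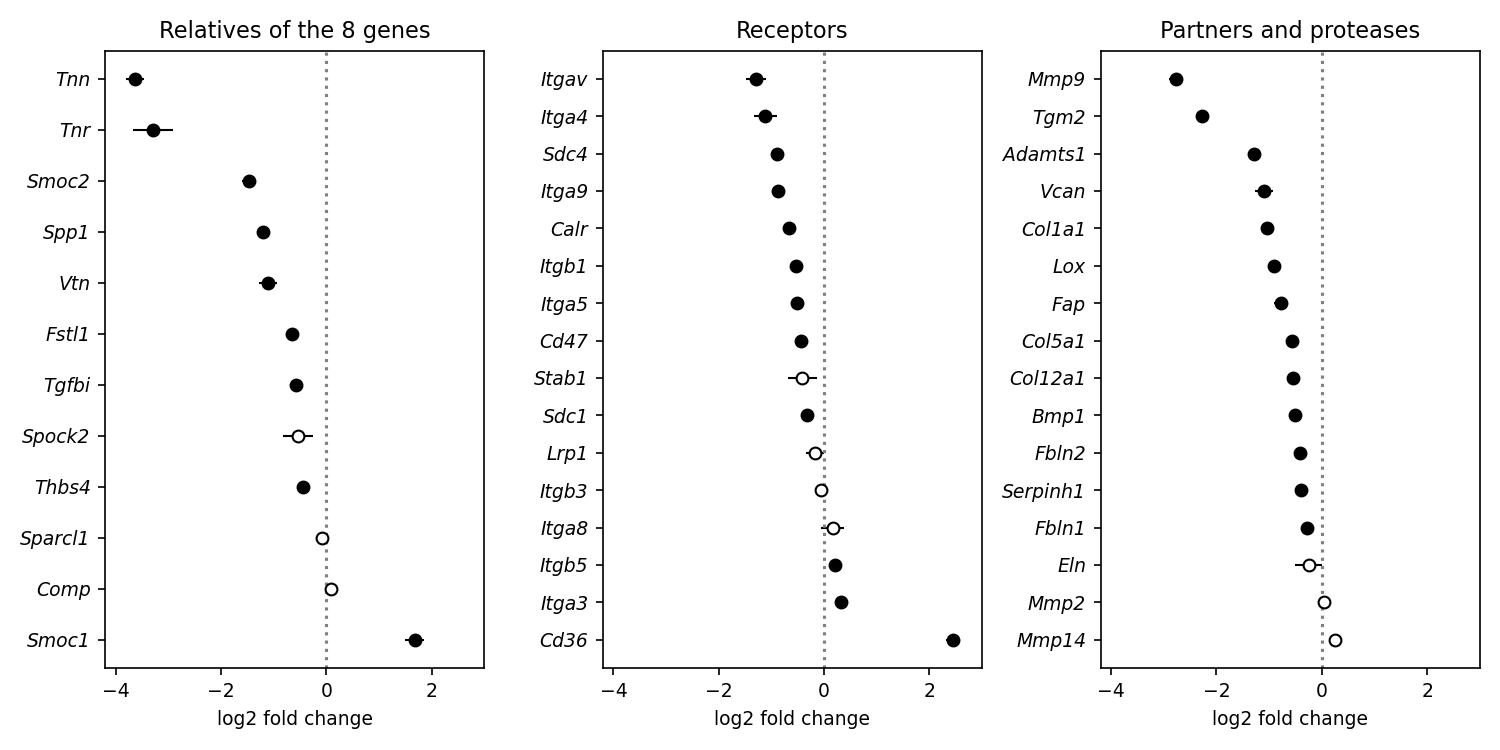
Log2 fold change (melatonin over vehicle) with its standard error for the tested relatives (12), receptors (16) and partners and proteases (16) of the 8 genes, filled where the edgeR adjusted p was under 0.05. Most filled points lie left of 0, and Smoc1 (1.68), Cd36 (2.46), Itga3 (0.31) and Itgb5 (0.21) are filled and right of it.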

How the data were processed

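Bulk RNA sequencing of 8 libraries was used, 4 of each group. The authors deposited raw counts per Ensembl gene. Per the submitters' processing notes, build mm10 was used with HISAT2 2.0 and StringTie 1.3.3b, besides Trimmomatic 0.36, FastQC 0.11.2, DESeq2 1.12.4 and bedtools 2.26.0, with no role given for each. No counting program, annotation or strand setting is named there. Columns prefixed as control were read as vehicle, the only other group. Every gene in the table has at least 11 counts in total. Symbols and lengths came from GENCODE M21 on GRCm38 (mm10), which held 20720 of the 20781 gene IDs.

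Genes were kept with filterByExpr (16565; 4216 not tested), scaled with TMM factors and tested with edgeR 4.0.16 (robust quasi-likelihood F-test, group as the only term, Benjamini-Hochberg over all tested genes, threshold 0.05). The standard error came from the log2 fold change over the root of F. CPM were computed here from the counts. A library without a count for a gene allows up to 3 counts, 0.056 to 0.0805 CPM, covering counting error only. Replicates of a group differed by more than sampling noise (chi-square 24.9 to 79.3 per gene). Member pairs were compared by exact permutation (scipy 1.17.1). In counts simulated for this comparison over 16565 genes, 70% of 100 genes changed 2-fold were recovered and 12% of 100 changed by 0.5 on the log2 scale. Far fewer genes were changed there than the 6054 that passed in the data. The adjusted p depends on that number, so these shares need not hold for the data.

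The 8 genes and the lists were chosen with earlier results of these data known. Named genes are all 8, the 3 with the smallest p in each direction among those passing in each list, list members not tested, and the 2 nearest profiles of each of the 8. Others are said to be named after their values were seen. Other scaling, filters and threshold were tried, as were limma-voom (limma 3.58.1), DESeq2 1.42.0, no robust estimation, no mitochondrial genes, the replicate number as a block, other counts added to ratios, and each library left out.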

Additional observations from a re-analysis of the deposited data

Results flagged for a closer look

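Groups of 4 libraries were checked for a single library far from the other 3, in 98 groups of values (levels of the named genes and the 6 ratios), and 12 stood out. Chance marks about 1 in 20 such groups where they are independent. These were not, because the nearest profiles were picked for following a member over the same libraries and the ratios are built from members. Several flags can therefore repeat the same deviation. Of the 12, 6 were melatonin replicate 4. It was low for Smoc1 (57.5 CPM) and Bcor (27.4 CPM) and high for Sdc4 (143 CPM) and Nars (170.8 CPM), and it was high in the log2 ratios of Tnc to Tnxb (2.25) and of Sparc to Fn1 (-0.42). Vehicle replicate 3 was high for Thbs3 (57 CPM) and Mmp9 (170.7 CPM). Vehicle replicate 4 was low for Rffl (25.7 CPM) and in the log2 ratio of Thbs1 to Thbs2 (2.60), and vehicle replicate 2 was low for Bcor (40.9 CPM). Melatonin replicate 3 was low for Tnr (0.0373 CPM).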

How the results depend on the processing

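Over 19 alternatives, Thbs1, Thbs3, Tnc, Postn and Sparc kept their direction and their call, with log2 fold changes of -1.47 to -1.29, -1.15 to -0.96, -1.14 to -0.93, -0.78 to -0.57 and -0.52 to -0.33. For 43 tested genes (those named by rule and 6 named after their values were seen), 775 of 817 values stayed on their side of the threshold, the other 42 came from 10 genes, and 0 genes reversed. Mmp14 passed in 4 alternatives. With library totals in place of TMM factors the median of all genes moved from 0.01 to 0.17, 5099 genes were higher in place of 2992 (69.5% of those passing in place of 49.4%), and 2 of the 8 genes were higher (Thbs2 and Tnxb). At a threshold of 0.01, 3865 genes passed in place of 6054, 1754 of them higher, and 0 of the 8 were higher. Leaving out single libraries gave 1 to 2 of the 8 higher, the 2 without melatonin replicate 4. Same-numbered libraries did not deviate together (correlations of -0.0707 to 0.0378, and 0 of 8 libraries correlated best with their own number). These correlations gave no sign of pairing by number. They cannot exclude a shared animal or culture, on which the labels are silent. With the replicate number as a block 4942 genes passed, 5 of the 8 genes were lower and 0 higher by edgeR adjusted p (1 at an unadjusted p under 0.05), Tnxb having an adjusted p of 0.0643 and Fn1 one of 0.0536. The 6 ratios kept their direction under every alternative run on them. With single libraries left out they ran from -1.61 to -1.47 (Thbs1 to Thbs2), -0.38 to -0.29 (Thbs1 to Thbs3), 1.13 to 1.31 (Thbs2 to Thbs3), -2.28 to -1.83 (Tnc to Tnxb), -0.43 to -0.28 (Postn to Fn1) and -0.28 to -0.056 (Sparc to Fn1), and in that order 5, 3, 5, 3, 3 and 1 of 8 exclusions had an exact adjusted p under 0.05. Low counts kept Spock1 and Spock3 from the test, and no member.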
